A study of Mus musculus with 6 samples.

Results

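The granins and the membrane proteins of dense-core granules were followed in αTC1 cells treated with the SMNDC1 inhibitor G786-1089 or with its solvent. The set holds 8 genes of the 55487 in the deposited table, chosen by name for what their proteins do in endocrine secretory granules. Earlier results of these data were known when it was chosen. Its members are the granins Chga, Chgb, Scg2, Scg3 and Vgf, the receptor phosphatase-like membrane proteins Ptprn and Ptprn2, and the calcium sensor Scgn. All 8 were among the 15082 genes with enough counts to be tested. Chga fell to 0.459 times and Ptprn to 0.601 times the level in DMSO, Scg2 rose to 1.24 times, and the other 5 did not pass the test. Of all tested genes, 14.8% passed it, 6.98% higher and 7.8% lower. With the column letter as a block, the call of Scg2 was lost and 1232 genes passed in place of 2230.

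Dense-core granules store peptide hormones in endocrine cells and release them when calcium rises in the cytosol. They form at the trans-Golgi network, where granins, which are acidic and aggregate at low pH and high calcium, condense together with the prohormones. Prohormone convertases and carboxypeptidases then cut the cargo to its active form, and in α cells the main product is glucagon.

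αTC1 is a mouse line of glucagon-producing α cells from a pancreatic tumour that arose in mice with a viral oncogene under the preproglucagon promoter, so the cells divide and are not primary islet cells. SMNDC1 is a splicing factor that binds methylated arginines through its Tudor domain, and G786-1089, taken to be compound 1 of the study, is an inhibitor of that domain. The study calls compound 1 non-selective and reports that it also lowered the intensity of the related protein SMN in cells. The 3 libraries of each group, G786-1089 and DMSO, came from this line alone, without a genetic change named in the labels, and dose and time of the treatment are not given for the sequenced cells in the sources used here. The study states, for its cell culture work in general, that each replicate was divided into the treatments from a single batch of cells and that its samples were handled together. How far the batches of different replicates were apart is not described, so p-values measure only the spread between these libraries.

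The libraries held 70150880, 94747943 and 79198429 counts with the inhibitor and 64926602, 69480568 and 59070705 with DMSO, in columns lettered A, B and C. Changes are given on CPM, the share of a gene in all counts of its library on a common scale, after trimmed mean normalization (TMM), as log2 fold changes of inhibitor over DMSO from the quasi-likelihood test of edgeR, with the p-value adjusted by Benjamini-Hochberg over all 15082 genes and a threshold of 0.05. Levels are compared between genes on the deposited FPKM, which are scaled per kilobase of transcript. Average CPM, which is not scaled by length, is used between genes only to sort them by depth of counting. In these bulk samples, fewer cells that make a transcript and less of it in each cell cannot be told apart. Smndc1 itself stood at 3.80 ± 2.42 CPM with the inhibitor and 2.12 ± 0.575 CPM with DMSO (SD, n = 3), a log2 fold change of 0.84 with an SE of 0.67 and an edgeR adjusted p of 0.481. The compound acts on the protein, so this level does not check the treatment.

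Of the markers that define α cells, Gcg was the most abundant tested transcript in DMSO, while Gc was listed at 0 counts in all 6 libraries. The 10 α cell markers summed to 3101 to 3711 FPKM with the inhibitor and 19117 to 21345 FPKM with DMSO, and 3 of them fell: Gcg, Irx2 and Slc38a5. Of the 8 β cell markers, Ins1 and Pdx1 were at 0, and the list summed to 2.48 to 3.91 FPKM with the inhibitor and 3.64 to 4.82 FPKM with DMSO. Of the 4 δ cell markers, Sst, Hhex and Ghsr were at 0 and Rbp4 alone gave the sum of 315 to 325 FPKM with the inhibitor and 235 to 262 FPKM with DMSO. The PP cell marker Ppy was at 0. The 6 acinar and duct markers summed to 14.0 to 22.6 FPKM with the inhibitor and 5.18 to 11.9 FPKM with DMSO, and the 7 fibroblast, endothelial and immune markers to 6.10 to 14.2 FPKM and 4.43 to 6.52 FPKM. Of these last 13 genes 1 was called, Col1a2, which fell from 2.57 to 0.0256 CPM. Rbp4 rose, and no β cell marker was called. What part these markers have in the changes of the granule genes was not tested.

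Promoters are shown for the members that passed the test and for Chgb, the closest relative of Chga in name and role. The reason is that the cyclic AMP response element is a known regulator of granin genes. Factors that bind it, Crem, Creb1 and Atf1, were measured here. Crem was called lower, and Creb1 and Atf1 did not pass. The sequences are from RefSeq on GRCm38.p6 and run 5′ to 3′ on the strand of the gene, from 250 bases before to 50 bases after an annotated start. A window was found for 7 of the 8 members, and for Ptprn there were 2. Capitals mark the letters TGACG on either strand, and where the full element TGACGTCA occurs, which reads the same on both strands and holds TGACG 2 times, all of its letters are in capitals.
Chga, chr12:102554691-102554990, + strand: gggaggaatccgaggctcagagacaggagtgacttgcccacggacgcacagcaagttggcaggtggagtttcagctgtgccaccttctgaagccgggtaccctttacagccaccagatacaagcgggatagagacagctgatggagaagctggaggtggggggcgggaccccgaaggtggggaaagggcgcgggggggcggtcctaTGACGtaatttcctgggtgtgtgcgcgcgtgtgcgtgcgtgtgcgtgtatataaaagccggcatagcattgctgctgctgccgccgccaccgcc
Ptprn, chr1:75264159-75264458, - strand: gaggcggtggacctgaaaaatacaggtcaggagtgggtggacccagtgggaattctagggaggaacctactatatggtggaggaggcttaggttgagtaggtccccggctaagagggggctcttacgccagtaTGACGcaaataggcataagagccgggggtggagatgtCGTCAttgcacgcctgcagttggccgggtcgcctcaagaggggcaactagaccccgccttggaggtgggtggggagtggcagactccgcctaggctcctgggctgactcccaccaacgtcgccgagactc
Scg2, chr1:79439977-79440276, - strand: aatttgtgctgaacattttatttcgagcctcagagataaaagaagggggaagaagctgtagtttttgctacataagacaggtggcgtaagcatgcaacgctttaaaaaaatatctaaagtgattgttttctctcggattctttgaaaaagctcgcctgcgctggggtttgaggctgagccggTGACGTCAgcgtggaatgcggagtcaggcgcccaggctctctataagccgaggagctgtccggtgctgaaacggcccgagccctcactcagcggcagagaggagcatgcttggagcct
Chgb, chr2:132781392-132781691, + strand: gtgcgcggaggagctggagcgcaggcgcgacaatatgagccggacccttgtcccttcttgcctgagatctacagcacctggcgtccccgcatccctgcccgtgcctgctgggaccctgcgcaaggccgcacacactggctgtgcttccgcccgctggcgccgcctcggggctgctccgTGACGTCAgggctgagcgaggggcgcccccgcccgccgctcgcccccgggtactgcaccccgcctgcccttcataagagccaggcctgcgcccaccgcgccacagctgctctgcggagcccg

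The full element lay at -72 to -65 from the RefSeq start of Chgb and at -68 to -61 from that of Scg2. It was present in 1.79% of all 32851 promoter windows of the same length. The Chga window held TGACG 1 time, at -44 to -40, and the Ptprn window shown held it at -117 to -113 and at -80 to -76. TGACG on either strand was present in 20.8% of all windows. Among the members not shown, Scg3 held it 1 time, at -30 to -26, and the windows of Scgn and Ptprn2 and the other window of Ptprn held it 0 times. Of the 2 members with the full element, Scg2 rose and Chgb did not pass. Their ratio within a library, Chgb over Scg2 in FPKM, differed by a log2 value of -0.57 between the groups (exact permutation test, two-sided p = 0.2), so a difference between them was not shown. Chga and Ptprn, which fell, held TGACG without the exact full element, and near matches to it were not counted. The matches describe the letters in the windows and not where a factor binds. Whether they bear on the changes was not tested. The gene starts of the files are not always the RefSeq starts. That of Chga lies 28 bases downstream of the RefSeq start, and the letters TATAAA, found in 13.6% of all windows, lie between the 2, at 6 to 11. For Chgb, Scg2 and the Ptprn window shown, the gene starts lie at -364, -94 and -294 from the RefSeq starts. All positions given are from the RefSeq starts and would differ if counted from the gene starts.

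Chga encodes chromogranin A, the granin with the most abundant transcript of the set and the precursor of peptides such as vasostatin and pancreastatin. It lies on chromosome 12, 102554969 to 102565028, on the + strand of GRCm38 (ENSMUSG00000021194), with up to 8 exons in a transcript and no exon overlap with another gene. With the inhibitor the 3 libraries had 861, 780.4 and 877 CPM, and with DMSO they had 1673, 1894 and 1922 CPM. Every DMSO library was above every inhibitor library. The means were 839 ± 51.6 CPM and 1829 ± 137 CPM (SD, n = 3), and the log2 fold change was -1.12 with an SE of 0.077 and a 95% interval from -1.31 to -0.94 (edgeR adjusted p = 0.000412). Chga was the only member past the filter used in the study, which asks for an adjusted p no higher than 0.1 and a log2 fold change of 1 or more in either direction. The study set this filter on DESeq2 results to narrow a list of splicing events. Here it was set on the edgeR results, as a filter on expression. By DESeq2, 1 member passed it as well. With libraries scaled by their totals alone, Chga was at -0.92 with an adjusted p of 0.00101 and did not pass that filter, and this scaling moved the median of all genes by 0.20, so that Chga stood -1.16 from it.

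**Figure D1:**
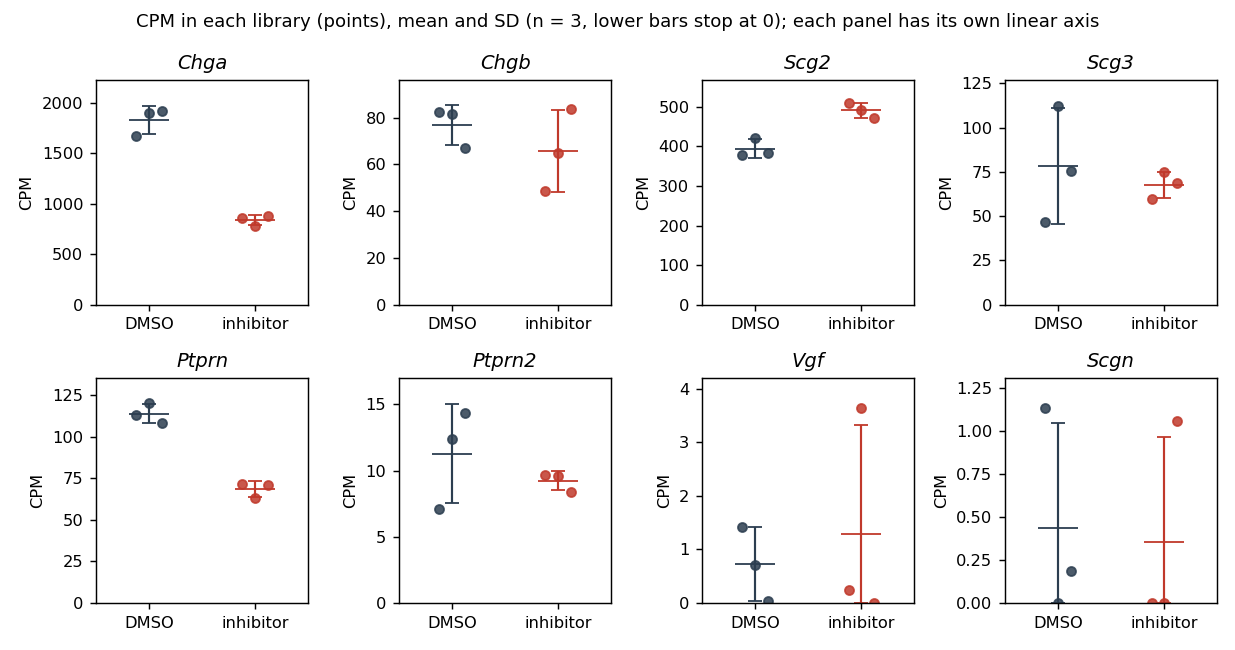
CPM of the 8 members (y axis, linear, a separate scale in each panel) in DMSO and inhibitor libraries (x axis). Points are the 3 libraries of a group in the order A, B, C, and horizontal lines and bars are the mean and SD. The groups do not overlap for Chga and Ptprn, which are lower with the inhibitor, or for Scg2, which is higher, and they overlap in the other 5 panels.

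Scg2 encodes secretogranin II, the precursor of the peptide secretoneurin, and lies on chromosome 1, 79434669 to 79440120, on the - strand (ENSMUSG00000050711). The inhibitor libraries had 510.1, 491 and 472 CPM and the DMSO libraries 377, 422 and 385 CPM. All 3 inhibitor libraries were above all 3 DMSO libraries, with a gap between the groups that was smaller than for Chga. The means were 491 ± 19.0 CPM and 395 ± 23.9 CPM (SD, n = 3), and the log2 fold change was 0.32 with an SE of 0.074 and a 95% interval from 0.14 to 0.49 (edgeR adjusted p = 0.0337). This call was close to the threshold. It was lost in 4 of 11 alternative settings, with a minimum of 1 count in any library (adjusted p = 0.0538), limma on log2(FPKM + 1) without a minimum (0.0505), gene length offsets (0.0554) and a block by column letter (0.0905). It was also lost without inhibitor A (0.0913), inhibitor B (0.0813), inhibitor C (0.0582), DMSO A (0.119) or DMSO C (0.115), and kept without DMSO B (0.0489). The log2 fold change stayed above 0 in all of these, from 0.26 to 0.52, with adjusted p from 0.000254 to 0.119.

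Chgb, Scg3 and Vgf, the other granins of the set, did not pass. Chgb encodes chromogranin B, which shares the aggregating behaviour of chromogranin A, on chromosome 2, 132781278 to 132795079 (ENSMUSG00000027350). It had 48.7, 65.0 and 83.7 CPM with the inhibitor and 82.3, 81.6 and 67.1 CPM with DMSO. Of the inhibitor libraries, 2 lay below every DMSO library and 1 lay above them, so the groups overlapped. The log2 fold change was -0.23 with an SE of 0.21 and an edgeR adjusted p of 0.562, and the 95% interval of the fold ran from 0.600 to 1.22. The within-library ratio of Chga to Chgb in FPKM was 25.7, 17.5 and 15.2 with the inhibitor and 29.6, 33.8 and 41.7 with DMSO, a log2 difference of -0.87 with no overlap (exact permutation test, two-sided p = 0.1, the smallest that 3 against 3 can give).

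Scg3 encodes secretogranin III, which binds chromogranin A and holds it to the cholesterol-rich granule membrane, and lies on chromosome 9, 75643189 to 75684056 (ENSMUSG00000032181). Its values were 59.7, 74.7 and 68.5 CPM with the inhibitor and 46.8, 112.2 and 75.5 CPM with DMSO. The DMSO libraries held both the lowest and the highest value, with a coefficient of variation of 41.8% against 11.6% for the inhibitor libraries, although each library had 2846 to 7478 counts of the gene. The log2 fold change was -0.21 with an SE of 0.30 and an edgeR adjusted p of 0.724, and the fold was bounded at 0.524 and 1.43. Without DMSO B the log2 value was 0.14.

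Vgf encodes a granin of neurons and endocrine cells that is induced by growth factors, and lies on chromosome 5, 137026392 to 137033351 (ENSMUSG00000037428). It had 18, 364 and 0 counts with the inhibitor and 86, 46 and 2 counts with DMSO. One inhibitor library held most of its counts, and the other 5 libraries were at or below 1.41 CPM. The 0 of inhibitor C allows up to 3 counts, or 0.0346 CPM, which covers counting error only. The log2 fold change was 0.84 with an SE of 2.00 and an edgeR adjusted p of 0.834, and without inhibitor B it was -2.57, so no direction can be given at this depth.

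Ptprn and Ptprn2 encode the receptor phosphatase-like proteins that span the granule membrane and are islet autoantigens in autoimmune diabetes. Ptprn lies on chromosome 1, 75247027 to 75264502, on the - strand (ENSMUSG00000026204), and 4.45% of its exon bases overlap Gm28294, whose reads cannot be told apart there without strand. It had 71.7, 63.0 and 70.9 CPM with the inhibitor and 113.5, 120.3 and 108.4 CPM with DMSO. The 2 groups were far apart compared with their spread. The means were 68.5 ± 4.81 CPM and 114 ± 5.95 CPM (SD, n = 3), and the log2 fold change was -0.73 with an SE of 0.11 and a 95% interval from -1.001 to -0.47 (edgeR adjusted p = 0.00756).

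Ptprn2 lies on chromosome 12, 116485720 to 117276849 (ENSMUSG00000056553), a span of 791130 bases with 6 annotated genes inside its introns, among them Mir153. It had 9.69, 9.61 and 8.39 CPM with the inhibitor and 7.09, 12.4 and 14.4 CPM with DMSO. The inhibitor libraries lay within the range of the DMSO libraries. The log2 fold change was -0.29 with an SE of 0.34 and an edgeR adjusted p of 0.649, and the fold was bounded at 0.469 and 1.43, an interval that also holds the 0.601 of Ptprn. The ratio of Ptprn to Ptprn2 in FPKM differed by a log2 value of -0.51 between the groups (exact permutation test, two-sided p = 0.2), so the 2 were not shown to respond differently.

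Scgn encodes secretagogin, a calcium-binding protein of the cytosol that takes part in the release of granules, and lies on chromosome 13, 23953456 to 23991214 (ENSMUSG00000021337). It had 0, 0 and 92 counts with the inhibitor and 69, 0 and 10 counts with DMSO. It was listed at 0 in 3 of the 6 libraries, where up to 0.0401, 0.0300 and 0.0462 CPM would be allowed in inhibitor A, inhibitor B and DMSO B. The log2 fold change was -0.31 with an SE of 2.38 and an edgeR adjusted p of 0.951, and it ran from -7.97 to 1.94 when 1 library at a time was left out, so a difference was not detectable at this depth.

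Of the 8 members, 1 was called higher, where 6.98% of all tested genes were, and 2 were called lower, where 7.8% were. The median log2 fold change was -0.26 over the 8 members and 0.04 over all tested genes, with 6 members below 0 and 2 above. For 3 members the CPM of the groups did not overlap, 1 higher and 2 lower, as for 36.7% of all tested genes, 18.2% higher and 18.5% lower. The filter of the study was passed by 1 member, which was lower, and by 10.4% of all tested genes, 6.25% higher and 4.16% lower. The members called were the 3 with the highest average CPM, and precision grew with abundance: among the 4453 tested genes whose average log2 CPM reached 5, which include 5 of the members, 34.3% were called, 13.6% higher and 20.8% lower. The median SE of the log2 fold change was 0.16 for those genes and 0.43 for all. Without a further test the members' count of calls is a description and says nothing particular to them.

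**Figure D2:**
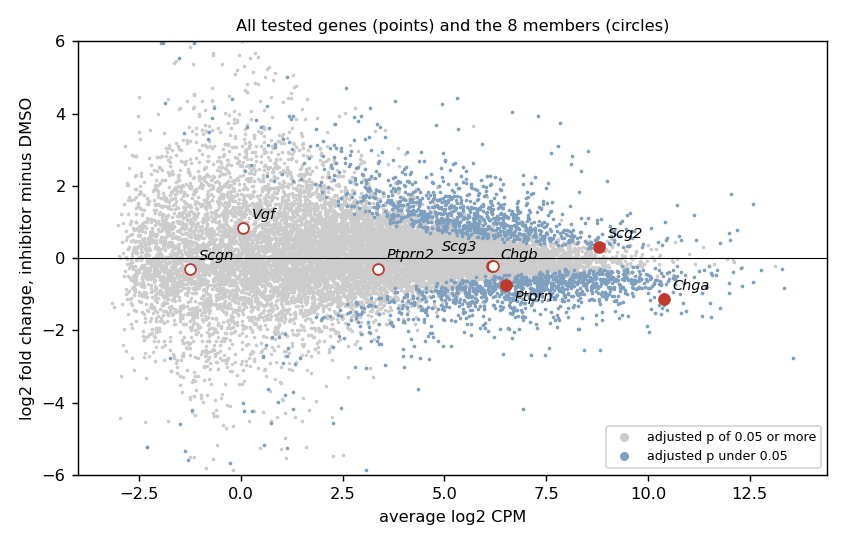
Log2 fold change of inhibitor over DMSO (y axis) against the average log2 CPM (x axis) for the 15082 tested genes (points, blue where the edgeR adjusted p was under 0.05) and the 8 members (circles, filled where called). 119 genes lie beyond the plotted range of 6 in either direction. Chga, Scg2 and Ptprn are the rightmost members, while Vgf and Scgn sit at the left among genes that change widely without passing.

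On the FPKM scale, the order of the members in DMSO was Chga (892 ± 67.1), Scg2 (144 ± 8.48), Scg3 (30.1 ± 12.6), Ptprn (29.5 ± 1.47), Chgb (25.8 ± 2.83), Ptprn2 (3.24 ± 1.08), Scgn (0.267 ± 0.369) and Vgf (0.224 ± 0.214; SD, n = 3). Chga was the 101st most abundant of the tested genes in DMSO. Scg3, with 18.0 to 43.1 FPKM, overlapped both Ptprn and Chgb, and Scgn overlapped Vgf. With the inhibitor the order was Chga (408 ± 22.8), Scg2 (179 ± 6.996), Scg3 (26.0 ± 3.01), Chgb (22.01 ± 5.83), Ptprn (17.7 ± 1.14), Ptprn2 (2.64 ± 0.215), Vgf (0.404 ± 0.636) and Scgn (0.213 ± 0.370; SD, n = 3). Ptprn thus passed from above Chgb, with 28.1 to 31.0 against 22.6 to 27.6 FPKM in DMSO, to a range of 16.4 to 18.4 FPKM that overlaps the 16.2 to 27.9 FPKM of Chgb.

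The 5 granins among the members together had 642, 614 and 651 FPKM with the inhibitor and 999.6, 1146 and 1133 FPKM with DMSO. Sum and shares hold for these 5 only. They leave out Scg5, listed under prohormone processing, with 265 ± 17.7 FPKM with the inhibitor and 342 ± 31.5 FPKM with DMSO (SD, n = 3). The sum was lower in every inhibitor library, and its makeup differed. Chga made up 64.2 ± 1.72% of it with the inhibitor and 81.7 ± 1.29% with DMSO (SD, n = 3). Scg2 made up 28.2 ± 1.60% and 13.2 ± 0.696%. Scg3 held 4.10 ± 0.572% and 2.71 ± 0.987%, Chgb 3.46 ± 0.883% and 2.38 ± 0.385%, and Vgf less than either in each library. The ratio of Chga to Scg2 within a library was 2.25, 2.12 and 2.48 with the inhibitor and 5.92, 5.996 and 6.67 with DMSO. This ratio fell to 0.369 times, a log2 difference of -1.44, with no overlap (exact permutation test, two-sided p = 0.1, the smallest possible). It does not depend on how the libraries are scaled.

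**Figure D3:**
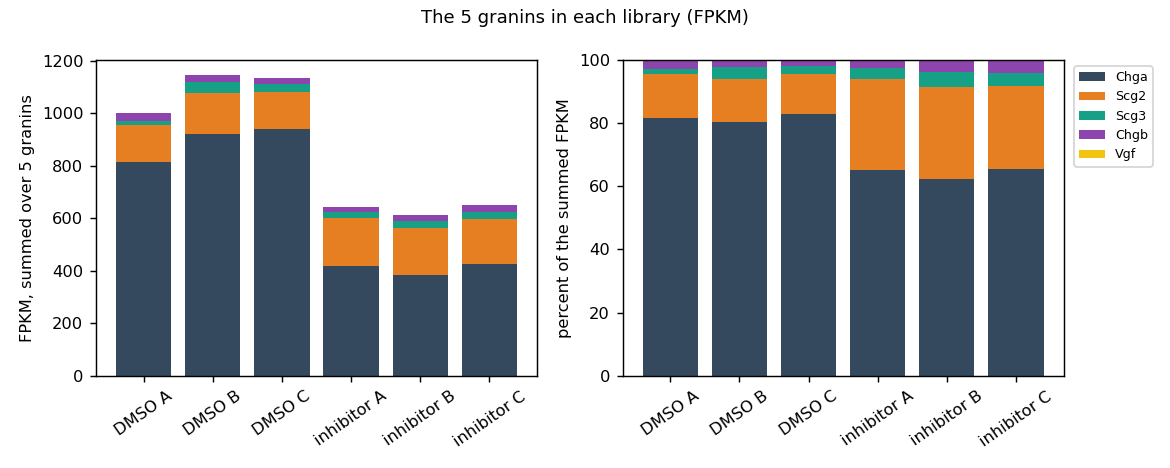
Summed FPKM of the 5 granins among the members (left, y axis in FPKM) and the percent of that sum held by each of them (right, y axis in percent), with a stacked bar for each library. The inhibitor bars are shorter, at 614 to 651 against 999.6 to 1146 FPKM, with a smaller part for Chga and a larger part for Scg2 in all 3.

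Both Chga and Ptprn fell. Their ratio in FPKM was 22.6, 23.4 and 23.3 with the inhibitor and 27.8, 29.7 and 33.5 with DMSO, a log2 difference of -0.39 with no overlap (exact permutation test, two-sided p = 0.1, the smallest possible). This does not show that they fell by different amounts, and with gene length offsets their log2 fold changes were nearer, at -1.06 and -0.88. Over the 6 libraries the log2 CPM of Chga and Ptprn had a Pearson r of 0.98 and those of Chga and Scg2 an r of -0.91. These correlations are descriptions over 6 libraries in 2 groups that share the treatment.

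For each member the other tested gene with the most similar pattern was taken as that with the highest Pearson r of log2 CPM over the 6 libraries, among genes whose average log2 CPM reached 3. For Chga it was Birc5 (r = 0.997), an inhibitor of apoptosis that works in cell division, with 321 ± 20.9 CPM with the inhibitor and 611 ± 26.2 CPM with DMSO (SD, n = 3). For Ptprn it was Rps13 (r = 0.998), a protein of the small ribosomal subunit whose reads pseudogene copies may share, and for Scg2 it was Mdc1 (r = 0.999), a scaffold of the response to DNA breaks. Such values are common: of the 7899 genes compared, 998 had an r above 0.9 with Chga, 964 with Ptprn and 551 with Scg2. For the members that did not pass, the nearest genes were Gm12669 for Chgb, a processed pseudogene whose counts are uncertain, Gtf2e1 for Scg3, Dalrd3 for Vgf, Xpnpep3 for Scgn and Tmem126a for Ptprn2, with r of 0.979 to 0.993.

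The other genes of the granule came from 6 lists, chosen with earlier results of these data known. Of their 89 genes, 62 were tested, and by edgeR 15 of the 62 were called lower and 0 higher. Over all tested genes 7.8% were called lower and 6.98% higher, and among those whose average log2 CPM reached 5, 20.8% and 13.6%. With an unadjusted p under 0.05, 17 of the 62 were lower and 3 were higher. DESeq2 called 3 of them higher, and limma on log2(FPKM + 1) with a minimum of 1 called 1. The median log2 fold change of the 62 was -0.29, against -0.26 for the members and 0.04 for all tested genes, with 38 below 0 and 24 above. The genes that other settings called higher were Myrip and Rph3al, which act in granule transport, and Ptbp1, an RNA-binding protein that stabilises granule transcripts. These 3 are named because of their calls and not by the rule for named genes.

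**Figure D4:**
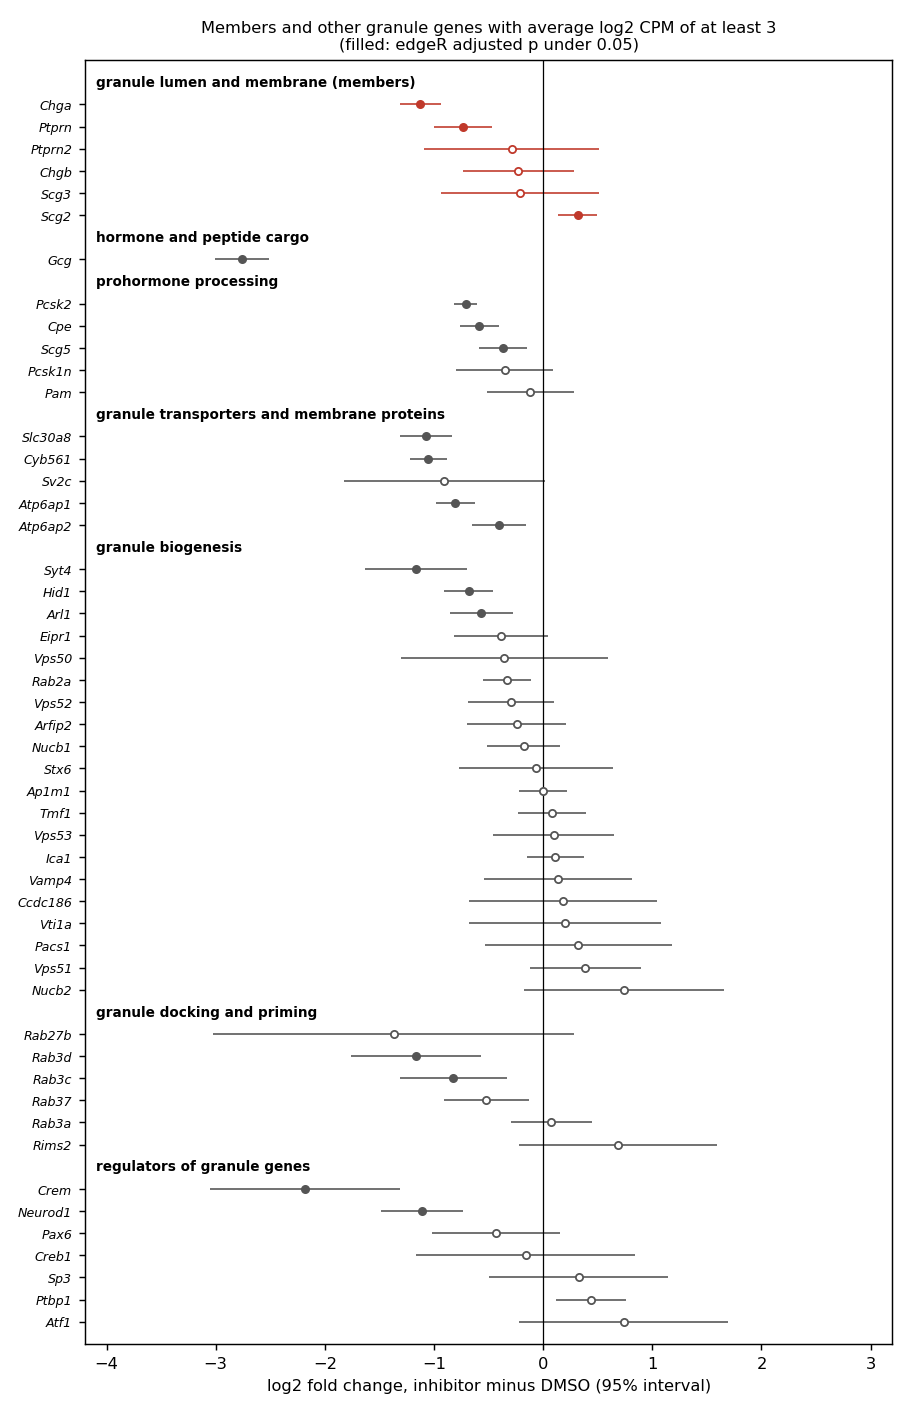
Log2 fold change of inhibitor over DMSO (x axis) with its 95% interval for 6 members (red) and 44 other granule genes whose average log2 CPM reached 3 (grey), grouped by list; filled points passed the edgeR test. Gcg lies farthest to the left at -2.76, Chga lies at -1.12, and Scg2 is the only filled point to the right of 0.

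Among the hormones and peptides, 3 of 18 were tested and only Gcg passed, where 14.8% of all tested genes did. Gcg, the precursor of glucagon, had 3125 ± 417 CPM with the inhibitor and 21190 ± 1468 CPM with DMSO (SD, n = 3), with a log2 fold change of -2.76, an SE of 0.10 and an edgeR adjusted p of 0.000102. For the 6 more abundant members, the ratio to this cargo gene was compared within each library. The ratio of Chga to Gcg was 3.13 times higher with the inhibitor, that of Ptprn 4.09 times and that of Scg2 8.48 times, and those of Chgb, Scg3 and Ptprn2 were 5.71, 6.24 and 5.81 times higher. In each of these 6 ratios the 3 inhibitor libraries were above the 3 DMSO libraries (exact permutation test, two-sided p = 0.1 for each, the smallest possible). All 6 ratios share Gcg and its fall, so the 6 tests are not independent. A higher ratio shows only that the member did not fall as far as Gcg.

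Of the 9 enzymes and chaperones of prohormone processing, 7 were tested and 3 were called lower, where 7.8% of all tested genes were. Pcsk2, the convertase that cuts proglucagon and the granins, had 1227 ± 33.3 CPM with the inhibitor and 2007 ± 17.2 CPM with DMSO (SD, n = 3), a log2 fold change of -0.71 (SE 0.045, edgeR adjusted p = 0.00033). Cpe, the carboxypeptidase that trims the ends left by the convertases, was at -0.59 (adjusted p = 0.00419), and Scg5, the chaperone of Pcsk2, at -0.36 (adjusted p = 0.0437). The other 4 tested genes did not pass: Pcsk1n, an inhibitor of Pcsk1, at -0.35, the amidating enzyme Pam at -0.12, Furin at -0.89 and Cpd at 0.99, with edgeR adjusted p of 0.278, 0.718, 0.508 and 0.468. Pcsk1 and Qpct had too few counts to be tested.

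Of the 10 transporters and membrane proteins of the granule, 8 were tested and 4 were called lower, where 7.8% of all tested genes were. Among tested genes whose average log2 CPM reached 5, 20.8% were called lower. All 8 had a log2 fold change below 0, but 4 of them did not pass. The SE of those not called ran from 0.387 to 1.49 and their edgeR adjusted p from 0.184 to 0.424, so their direction is uncertain. Slc30a8, the zinc transporter of islet granules, had 320 ± 32.9 CPM with the inhibitor and 673 ± 50.6 CPM with DMSO, a log2 fold change of -1.07 (SE 0.10, edgeR adjusted p = 0.0012). Cyb561, the cytochrome that carries electrons across the granule membrane, was at -1.05 (adjusted p = 0.000367). The proton pump accessory subunits Atp6ap1 and Atp6ap2 were at -0.81 and -0.41 (adjusted p = 0.0012 and 0.0437). Like Ptprn, these 4 encode proteins of the membrane, but Gcg and Chga, with products in the lumen, were called lower too. Ptprn2, which also encodes a membrane protein, did not pass. A difference between membrane and lumen was not tested.

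Genes that build and move granules were counted against the 7.8% of all tested genes called lower. Of 23 tested genes of granule biogenesis, 3 were called lower: Hid1, which acts in granule formation at the trans-Golgi network, at -0.68, the small GTPase Arl1 at -0.57 and the synaptotagmin Syt4 at -1.16 (edgeR adjusted p = 0.00539, 0.0246 and 0.0108). The median of that list was -0.0037. Of 12 tested genes of docking and priming, the GTPases Rab3c and Rab3d were called lower, at -0.82 and -1.17 (adjusted p = 0.0414 and 0.0255).

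Of the 9 tested regulators of granule genes, Neurod1, a transcription factor of endocrine cells, and Crem, which binds the cyclic AMP response element and encodes both activators and repressors, were called lower. Over all tested genes the share called lower was 7.8%. Neurod1 was at -1.11 (SE 0.16, edgeR adjusted p = 0.00599). Crem had 5.37, 13.8 and 9.59 CPM with the inhibitor and 51.8, 39.3 and 39.3 CPM with DMSO, a log2 fold change of -2.18 (SE 0.36, edgeR adjusted p = 0.0105). Creb1 and Atf1, which bind the same element and are named here for that reason, did not pass, at -0.16 and 0.74 (adjusted p = 0.851 and 0.294). Whether any of these factors bears on the members was not tested.

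The calls of Chga and Ptprn were kept in every alternative run. Over 11 alternative settings the log2 fold change of Chga ran from -1.13 to -0.92 and that of Ptprn from -0.88 to -0.53, and over the 6 fits that left out 1 library from -1.19 to -1.07 and from -0.78 to -0.68. The adjusted p was at most 0.00877 for Chga and 0.0433 for Ptprn in these 17 fits. As a share of all counts of a library, with no other scaling, Chga took 0.0918%, 0.0825% and 0.0960% with the inhibitor and 0.157%, 0.177% and 0.177% with DMSO, so the order of the groups was the same.

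**Figure D5:**
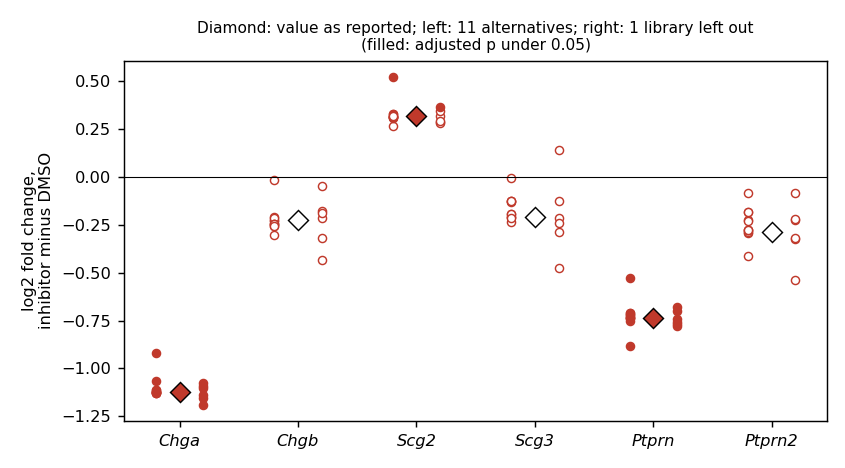
Log2 fold change of inhibitor over DMSO (y axis) of the 6 more abundant members under the reported fit (diamonds), 11 alternative settings (left) and with 1 library left out (right), filled where the adjusted p was under 0.05. Chga and Ptprn stay filled and below 0 throughout, Scg2 stays above 0 but is open in 9 of 17 fits, and Scg3 crosses 0 without DMSO B.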

How the data were processed

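RNA of 6 libraries of αTC1 cells was sequenced by the study, 3 per group. The libraries were made with Smart-seq2, which keeps no strand, and read from both ends. The authors aligned the reads to GRCm38 with STAR and counted them on Ensembl transcripts irrespective of strand (STAR 2.7.9a, Picard 2.19.2 and DESeq2 1.34.0 per the submitters' processing notes). The authors deposited raw counts per gene, which are whole numbers without normalization, and FPKM values, whose scaling between libraries is not described in the sources used here. Of the counts between 1 and 10, 78.1% were even, so counts may not all be independent fragments.

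The count test was the quasi-likelihood test of edgeR 4.0.16 (R 4.3.3) after TMM, on genes that passed filterByExpr (minimum count 10, minimum total 15), and its p-values were adjusted by Benjamini-Hochberg over all of them. The SE was derived from the F statistic, as the size of the log2 fold change over the root of F. Single ratios were compared by an exact permutation test. The 95% intervals come from the edgeR fit and include the spread between libraries, while the floor of 3 counts covers counting error only. Columns were put in groups by the treatment in their names, since their letters do not show which numbered replicate they hold. Between libraries of a group the chi-square per degree of freedom was 75.3 to 161, so none was a copy of another.

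The members and the granule lists were chosen with earlier results of these data known. Genes named beside the members are, from each list, up to 4 called genes with the smallest p and an average log2 CPM of at least 3, Gcg, all genes of prohormone processing, the nearest gene of each member and Smndc1. The alternatives were DESeq2 1.42.0, RLE factors, library size only, at least 1 count in any library or 10 in every library, limma 3.58.1 on log2(FPKM + 1) or log2(FPKM + 0.1) with an FPKM minimum of 1 and on log2(FPKM + 1) without one, gene length offsets, counts thinned to 59070705, a replicate block by letter and each library left out. The tools were tested on simulated data. Gene positions matched GENCODE vM21 by identifier for 55141 of 55487 genes, with the same coordinates in 99.4%. Promoters came from RefSeq. Figures were drawn with matplotlib 3.10.9.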

Additional observations from a re-analysis of the deposited data

How the results depend on the processing

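Over 82 comparisons of a member with an alternative setting, 77 kept their direction and side of the threshold, 4 lost the call of Scg2 and 1 turned direction. With 1 library left out, 38 of 48 were kept, 5 lost the call of Scg2 and 5 turned direction. The number of members called higher was 0, not 1, with at least 1 count in any library, limma on log2(FPKM + 1) without a minimum, gene length offsets or the replicate block, and 0 to 1 with 1 library left out. With library size only, 0 members passed the filter of the study. Other granule genes called higher were 0, but 3 with DESeq2 and 1 each with library size only, at least 10 counts in every library, and limma on log2(FPKM + 1) with or without a minimum. Of all tested genes, 2230 were called, 4276 with DESeq2 (2171 higher, 2105 lower), and 1630 higher with library size only. Without 1 library 1253 to 1556 were called, 545 to 613 higher and 706 to 943 lower. Without 1 library Scg3 ran from -0.48 to 0.14 (above 0 without DMSO B), Vgf from -2.57 to 1.78 (below 0 without inhibitor B) and Scgn from -7.97 to 1.94 (above 0 without inhibitor A, inhibitor B or DMSO A). The cause was not tested.

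With the replicate block by column letter, 1232 genes were called (524 higher, 708 lower), Scg2 lost its call and Vgf was at -1.20. The study describes samples of a replicate as handled together, but not whether a column letter marks a replicate. The deviations of same-lettered libraries correlated at only 0.00274 to 0.0251, although 5 of the 6 libraries were closest to their own letter. Vgf and Scgn had too few counts for a direction.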
